A study of Mus musculus with 4 samples.

Results

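The 10 genes Ctgf, Cyr61, Nov, Wisp1, Wisp2, Ankrd1, Amotl2, Yap1, Wwtr1 and Tead1 were taken by symbol from tables of 23235 symbols. They were chosen as members of the CCN family and of the YAP and TAZ pathway, with earlier results of these data known. All 10 were listed in every library, and all 10 had a mean of at least 1 FPKM, a level that scales fragments to transcript length and to the library's mapped fragments. They were described across 4 RNA sequencing libraries of primary mouse embryonic fibroblasts of the C57BL/6 strain, with 1 library for each genotype. The genotypes were wild type, Gadd45a-/-, G3 Terc-/-, bred for 3 generations without Terc, and G3 deficient for both genes (G3 dKO). The sample labels name the first gene only as Gadd45, and the series' design text names it as Gadd45a. Gadd45a encodes a stress-induced growth arrest protein, and Terc encodes the RNA template of telomerase, so that both G3 genotypes share the Terc deficiency. The sources used here give neither the number of embryos behind a culture nor their age, nor the passage.

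Before the results, the libraries need a check against their labels. Gadd45a stood at 22.9 FPKM in the wild-type library, 33.9 FPKM in the library labelled Gadd45a-/-, 31.4 FPKM in the library labelled G3 Terc-/- and 45.1 FPKM in the library labelled G3 dKO. The transcript was thus not lower in either library labelled deficient for it. The tables hold no values for single exons, so these levels neither show nor refute the deletion, and every genotype below is the one on the label. Terc was listed at 0.53, 0.26, 0 and 0 FPKM in that order, or about 2 fragments or fewer. So few fragments neither show nor refute the loss of Terc. The library labelled Gadd45a-/- also differed in sex, with Ddx3y of the Y chromosome at 16.4 FPKM and Xist, which coats the inactive X, at 0.15 FPKM, whereas the other 3 libraries held Xist at 24.0 to 34.1 FPKM. Its genotype label and its sex cannot be told apart. The depth estimated from the lowest values was 19500000 to 19900000 fragments per library, so that the members' values rested on about 178 to 44499 fragments each. With 1 library per genotype no difference below has a replicate check, and no test was possible. In RNA of whole cultures, fewer cells of a type and less RNA per cell cannot be told apart.

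YAP (Yap1) and TAZ (Wwtr1) are transcriptional coactivators that enter the nucleus when cells spread, feel a stiff matrix or carry actin tension, and that the Hippo kinases hold in the cytoplasm at high cell density. They do not bind DNA themselves and act through TEAD proteins, such as that encoded by Tead1. Ctgf, Cyr61, Ankrd1 and Amotl2 are widely used readouts of this activity. Ctgf and Cyr61 also belong to the CCN family of secreted matricellular proteins, together with Nov, Wisp1, Wisp2 and Wisp3, which bind integrins, proteoglycans and growth factors in the matrix of fibroblasts and cartilage. Wisp2 lacks the C-terminal cystine-knot domain of the other members.

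TEAD proteins recognise the letters GGAATG, or CATTCC on the other strand. RefSeq promoter windows (build GRCm38.p6, 250 bases before to 50 after the start of the gene) were matched for 5 of the 10 genes, namely Cyr61, Ankrd1, Amotl2, Yap1 and Wwtr1. The windows of the 3 target genes among them are shown because these are the readouts whose levels are compared below, with each GGAATG or CATTCC in capitals and all other bases in lower case. They lie at chr3:145649936-145650235 on the minus strand for Cyr61, at chr19:36119795-36120094 on the minus strand for Ankrd1 and at chr9:102717554-102717853 on the plus strand for Amotl2.
Cyr61: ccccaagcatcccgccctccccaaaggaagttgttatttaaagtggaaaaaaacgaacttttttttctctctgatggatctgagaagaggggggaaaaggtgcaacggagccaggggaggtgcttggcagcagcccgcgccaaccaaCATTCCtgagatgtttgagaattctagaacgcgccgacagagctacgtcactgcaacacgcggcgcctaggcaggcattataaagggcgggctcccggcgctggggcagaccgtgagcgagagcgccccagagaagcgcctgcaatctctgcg
Ankrd1: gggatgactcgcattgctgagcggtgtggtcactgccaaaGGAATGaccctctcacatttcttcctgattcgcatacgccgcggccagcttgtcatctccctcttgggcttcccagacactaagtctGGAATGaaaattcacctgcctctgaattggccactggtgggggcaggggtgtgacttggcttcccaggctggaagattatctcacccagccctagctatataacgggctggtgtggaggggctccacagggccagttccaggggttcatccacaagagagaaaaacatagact
Amotl2: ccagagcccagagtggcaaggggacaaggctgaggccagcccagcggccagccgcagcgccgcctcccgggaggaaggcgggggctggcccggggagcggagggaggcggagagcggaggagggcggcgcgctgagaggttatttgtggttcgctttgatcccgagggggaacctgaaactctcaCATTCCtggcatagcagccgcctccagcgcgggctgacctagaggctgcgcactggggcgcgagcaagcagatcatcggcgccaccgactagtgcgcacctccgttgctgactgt

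In Cyr61 the CATTCC began 103 bases upstream of the start, ahead of a TATAAA that began 25 bases upstream. Ankrd1 held GGAATG at 2 places, which began 210 and 123 bases upstream. In Amotl2 the CATTCC began 65 bases upstream. The window of Yap1 held GGAATG from 141 bases upstream, and the 2 overlapping windows of Wwtr1 shared a GGAATG, which began 136 bases upstream of the nearer start. The 6 letters were thus present, on either strand, in the windows of all 5 matched genes, against 14.7% of all 32851 windows in the table. Windows with at least 2 matches, like that of Ankrd1, made up 1.36% of the table. A match of these letters is a description of the sequence and does not show that a TEAD protein is bound.

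The 4 readout genes were at their highest level in the library labelled G3 Terc-/-. That library was also highest for 39.0% of the 11586 symbols with a mean of 1 FPKM or more. Ctgf (connective tissue growth factor) stood at 469.7 FPKM in the wild-type library, 513 FPKM in the library labelled Gadd45a-/-, 987 FPKM in the library labelled G3 Terc-/- and 515 FPKM in the library labelled G3 dKO. The library labelled G3 Terc-/- was alone at the high level, and the values of the libraries labelled Gadd45a-/- and G3 dKO lay within each other's counting intervals. Cyr61, a growth-promoting CCN protein, stood in that order at 335, 369.7, 529 and 314 FPKM. It shared its top library with Ctgf, but it was lowest in the library labelled G3 dKO, whereas Ctgf was lowest in wild type. Ankrd1, which encodes an ankyrin repeat protein of the nucleus and of the muscle sarcomere, stood at 28.0, 32.7, 59.9 and 50.5 FPKM. Here both G3 libraries lay above both Terc-proficient libraries. Amotl2, an angiomotin-like junction protein that binds YAP and restrains it, stood at 109, 139.6, 208 and 156 FPKM, again with both G3 libraries on top.

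**Figure D1:**
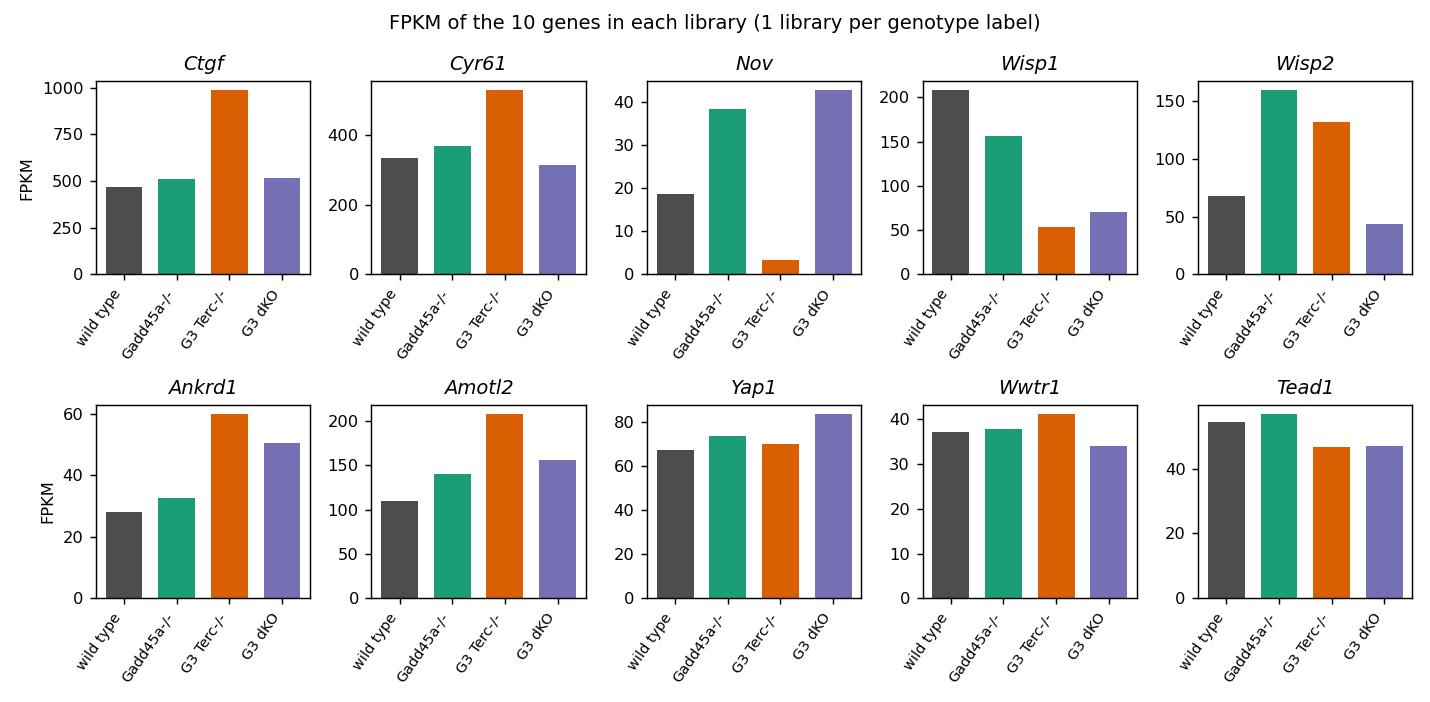
FPKM (vertical axes, each starting at 0) of the 10 genes in the libraries labelled wild type, Gadd45a-/-, G3 Terc-/- and G3 dKO, 1 bar per library and no error bars since each genotype has 1 library. Ctgf, Cyr61, Ankrd1 and Amotl2 are highest in the library labelled G3 Terc-/-, where Nov stands at 3.38 FPKM, while Yap1, Wwtr1 and Tead1 are nearly level.

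Differences between libraries were taken on the scale of log2(FPKM + 1), and from a difference of 1, which is a 2-fold difference of FPKM + 1, a gene is called higher or lower. By this size rule 5.7% of all 22490 symbols compared were higher and 3.32% lower in the library labelled G3 Terc-/- than in wild type, and 16.2% of the 11586 symbols with a mean of 1 FPKM or more passed it in either direction. Of the 10 members 2 were higher (Ctgf and Ankrd1) and 2 lower (Nov and Wisp1). On this scale the difference was 1.07 for Ctgf, 1.07 for Ankrd1, 0.92 for Amotl2 and 0.66 for Cyr61. As ratios of FPKM the same 4 genes were 2.1-fold, 2.14-fold, 1.90-fold and 1.58-fold higher. The median difference of the 10 members was 0.40, against 0.0060 over the 11586 symbols. The proliferation marker Mki67 differed along with these genes, at 27.9 FPKM for wild type and 24.1, 2.97 and 8.69 FPKM in the libraries labelled Gadd45a-/-, G3 Terc-/- and G3 dKO, and its part in the result was not tested.

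The libraries labelled G3 dKO and G3 Terc-/- differed in the opposite direction for the readouts, in a comparison that shares the library labelled G3 Terc-/- with the preceding one. Ctgf was lower in the library labelled G3 dKO by a factor of 1.92, a difference of -0.94, and Cyr61 by a factor of 1.68, a difference of -0.75. Amotl2 (-0.41) and Ankrd1 (-0.24) differed less, and these differences of log2(FPKM + 1) did not pass the size rule for any of the 4 genes. With quantile normalization Ctgf passed it at -1.03. Against wild type, the library labelled G3 dKO had Ctgf (0.13) and Cyr61 (-0.09) close to level, whereas Ankrd1 (0.83) and Amotl2 (0.51) stayed on the higher side. Its Ctgf level per unit of Ankrd1 was 10.2, and this ratio of FPKM was 15.7 to 16.8 in the other 3 libraries.

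The coactivators and Tead1 differed far less than the readouts. Yap1 stood at 67.1, 73.5, 69.7 and 83.5 FPKM in the libraries labelled wild type, Gadd45a-/-, G3 Terc-/- and G3 dKO, a 1.24-fold range with the library labelled G3 dKO on top. Wwtr1 stood at 37.3, 37.9, 41.2 and 34.1 FPKM, a 1.21-fold range in which the library labelled G3 Terc-/- was highest and the library labelled G3 dKO lowest, the same order of libraries as for Cyr61. Tead1 stood at 54.6, 57.0, 46.7 and 46.9 FPKM, with both G3 libraries below both Terc-proficient ones by up to 1.22-fold. Neighbouring values overlapped in their 95% counting intervals for wild type and G3 Terc-/- in Yap1, for wild type and Gadd45a-/- in Wwtr1 and for both G3 libraries in Tead1, and these and the Ctgf values above were 4 of 30 neighbours in the orders of all members. The intervals cover counting error only and not the choice of scaling. None of these 3 genes passed the size rule in any of the 5 comparisons. Yap1 transcripts outnumbered those of Wwtr1 in every library, with a ratio of FPKM of 1.80, 1.94, 1.69 and 2.45 in the same order. The level of Ctgf per unit of Yap1 was 7.0 for wild type, 6.97 in the library labelled Gadd45a-/-, 14.2 in the library labelled G3 Terc-/- and 6.17 in the library labelled G3 dKO. RNA levels do not show where the YAP and TAZ proteins were located.

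**Figure D2:**
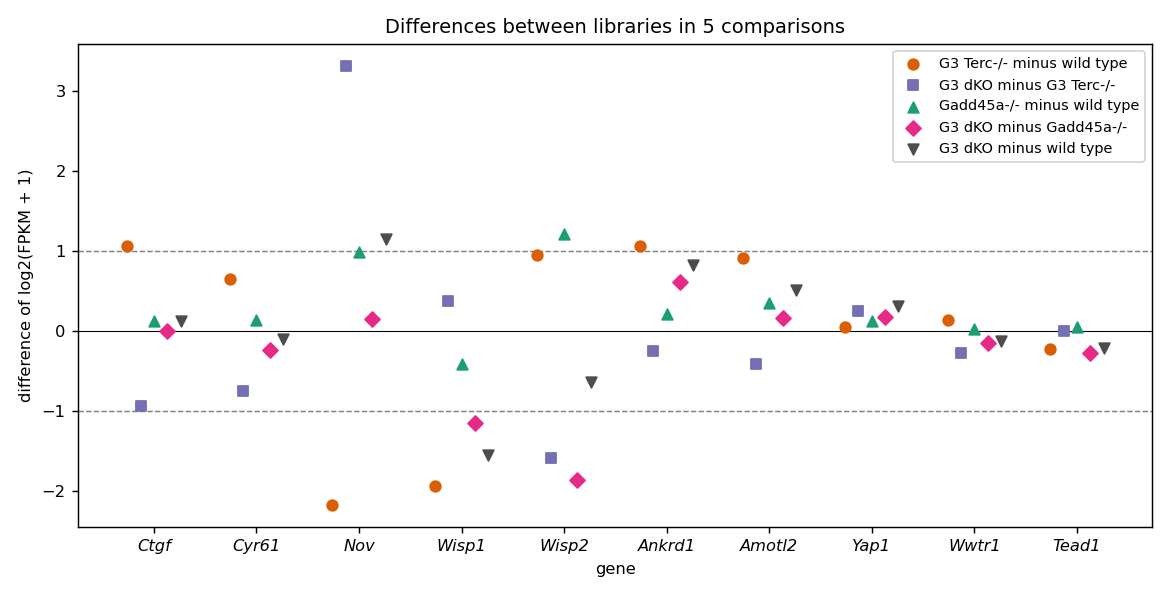
Difference of log2(FPKM + 1) (vertical axis) for each of the 10 genes (horizontal axis) in 5 comparisons between single libraries, with dashed lines at the size rule of 1 in either direction. Nov reaches 3.32 between the libraries labelled G3 dKO and G3 Terc-/-, and Yap1, Wwtr1 and Tead1 lie inside the dashed lines in all 5 comparisons.

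The remaining CCN genes each had an order of their own. Nov, a growth-restraining CCN protein that often counters Ctgf, had the widest range of the 10 genes. It stood at 18.7 FPKM in the wild-type library, 38.3 FPKM in the library labelled Gadd45a-/-, 3.38 FPKM in the library labelled G3 Terc-/- and 42.6 FPKM in the library labelled G3 dKO. The lowest value rested on about 178 fragments, with a 95% counting interval of 2.91 to 3.92 FPKM that covers counting error only. Nov was therefore lowest where Ctgf was highest, and both libraries labelled Gadd45a-deficient lay above both others. Relative to wild type it was 5.53-fold lower in the library labelled G3 Terc-/-, a difference of -2.17, and only 85 of 22490 symbols had a lower difference. Between the G3 libraries it was 12.6-fold higher in the library labelled G3 dKO, a difference of 3.32, and 4 symbols had a higher one. Ctgf exceeded Nov 25.2-fold for wild type, 13.4-fold in the library labelled Gadd45a-/-, 292-fold in the library labelled G3 Terc-/- and 12.1-fold in the library labelled G3 dKO.

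Wisp1, a CCN gene of the Wnt response and of bone-forming cells, stood at 208, 157, 53.8 and 70.3 FPKM in the libraries labelled wild type, Gadd45a-/-, G3 Terc-/- and G3 dKO. Both G3 libraries lay well below both Terc-proficient ones. Its difference was -1.93 for G3 Terc-/- against wild type and -1.15 for G3 dKO against Gadd45a-/-, comparisons that share no library and that both passed the size rule. The second comparison also crosses sex, which cannot be told apart from the label there. Wisp2 stood in that order at 67.6, 159, 132 and 43.2 FPKM. The libraries labelled Gadd45a-/- and G3 Terc-/-, each with a single deficiency by label, lay above wild type, and the library labelled G3 dKO lay below it. Wisp2 was 2.35-fold higher in the library labelled Gadd45a-/- than in wild type, a difference of 1.22, and 3.05-fold lower between the library labelled G3 dKO and that labelled G3 Terc-/-, a difference of -1.59. Wisp3, the remaining CCN gene, was listed at 0 FPKM in wild type and in the library labelled G3 dKO and at 0.041 and 0.042 FPKM in the others, about 1 fragment each, so that it was not detectable at this depth.

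Because FPKM is scaled to transcript length, the 5 detected CCN genes can be set beside each other within a library. Their summed level was 1099 FPKM in the wild-type library, 1236 FPKM in the library labelled Gadd45a-/-, 1704 FPKM in the library labelled G3 Terc-/- and 986 FPKM in the library labelled G3 dKO. Cyr61 held a near-constant 29.9% to 31.9% of that sum in all 4 libraries. Ctgf held 42.7% for wild type and 57.9% in the library labelled G3 Terc-/-, and stayed at 52.3% in the library labelled G3 dKO, where its FPKM was near that of the Terc-proficient libraries. Wisp1 made up 18.9% of the sum for wild type, 12.7% in the library labelled Gadd45a-/-, 3.15% in the library labelled G3 Terc-/- and 7.13% in the library labelled G3 dKO. The share of Nov was 1.70%, 3.09%, 0.20% and 4.33%, and that of Wisp2 was 6.16%, 12.9%, 7.74% and 4.38%. The library labelled G3 dKO thus resembled wild type in the summed level but not in the makeup, with less Wisp1 and more Nov.

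**Figure D3:**
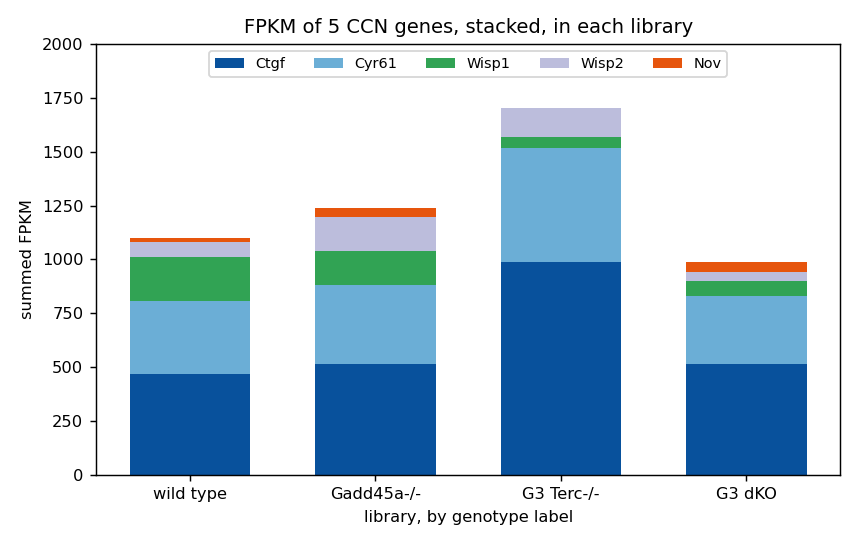
Summed FPKM (vertical axis) of Ctgf, Cyr61, Wisp1, Wisp2 and Nov, stacked, in each of the 4 libraries by genotype label (horizontal axis). The sum is highest in the library labelled G3 Terc-/- at 1704 FPKM, where the Ctgf segment is tallest and the Nov segment is too thin to see.

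The label Gadd45a-deficient can be followed in Terc-proficient and in G3 cells, from comparisons that share no library. Between the libraries labelled Gadd45a-/- and wild type 0.178% of all symbols lay above and 0.133% below the size rule, which 0.509% of the 11586 symbols passed. Of the members only Wisp2 did, while Nov missed it narrowly at 0.997 and passed it at 1.01 to 1.03 with a pseudocount of 0.1 FPKM or another scaling. A positive difference was found for 9 members in the library labelled Gadd45a-/-, against 42.5% of the 11586 symbols, and Wisp1 was lower (-0.41). The smallest positive differences were those of Wwtr1 (0.02) and Tead1 (0.06). The members' median was 0.14, against -0.027 over the 11586 symbols. Between the libraries labelled G3 dKO and G3 Terc-/- 0.849% of all symbols were higher and 2.79% lower, or 191 and 628 symbols, and 290 and 547 with quantile normalization. The rule was passed by 6.29% of the 11586 symbols. Of the members Nov was higher and Wisp2 lower, and the median was -0.25 against -0.031. Nov was higher with the label in both settings, whereas Wisp2 was higher in Terc-proficient cells and lower in G3 cells. Subtracting the first difference from the second gave -2.81 for Wisp2, 2.32 for Nov, -1.06 for Ctgf, -0.89 for Cyr61 and -0.76 for Amotl2. For the other 5 members this double difference ran from -0.46 to 0.79. Each double difference includes the library labelled Gadd45a-/-, which differed in sex, so genotype and sex cannot be told apart in it.

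**Figure D4:**
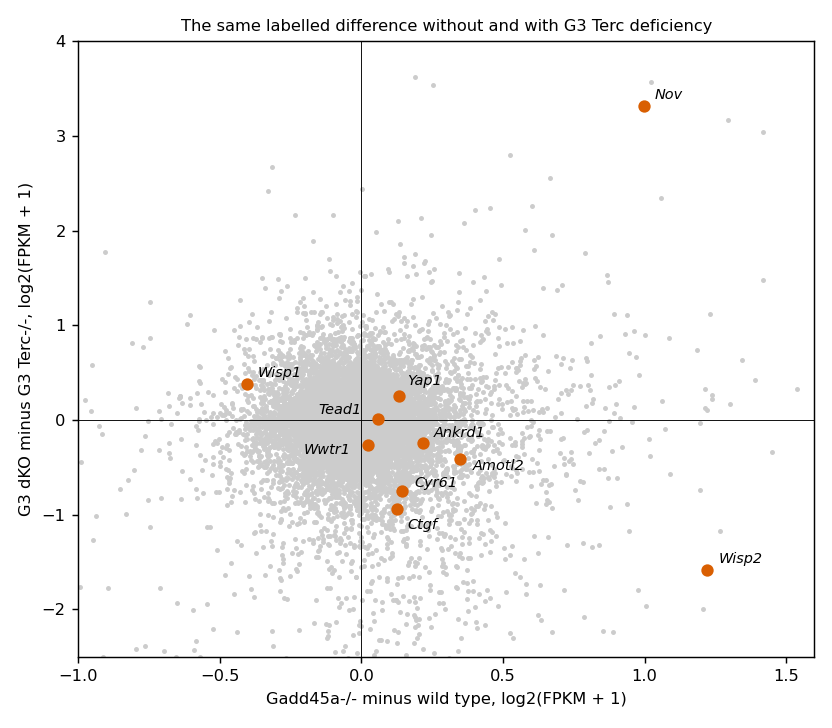
Difference of log2(FPKM + 1) between the libraries labelled Gadd45a-/- and wild type (horizontal axis) and between those labelled G3 dKO and G3 Terc-/- (vertical axis), with the 10 genes in orange among 11457 genes with a mean of 1 FPKM or more in grey (129 genes lie outside the axes). Nov sits at the upper right, Wisp2 at the lower right, and Ctgf and Cyr61 below the horizontal zero line.

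G3 Terc deficiency with the Gadd45a-/- label was compared between the libraries labelled G3 dKO and Gadd45a-/-, where 1.33% of all symbols were higher and 1.29% lower, and 4.83% of the 11586 passed. Of the members Wisp1 (-1.15) and Wisp2 (-1.86) were lower and none was higher. Ctgf was level at 0.01 and Nov at 0.15, and Ankrd1 had the highest positive difference of the 10, at 0.61. The libraries labelled G3 dKO and Gadd45a-/- also differed in sex, which cannot be told apart from the label here. Between the libraries labelled G3 dKO and wild type 2.02% of all symbols were higher and 1.55% lower, and 6.65% of the 11586 passed. Nov (1.15) was higher, at 2.28-fold, and Wisp1 (-1.55) was lower, by a factor of 2.96. These comparisons share libraries with those above and are not independent of them.

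Other genes of the pathway came from lists of Hippo regulators, partners, further targets, CCN receptors and related responses, of which members with a mean of 1 FPKM or more were counted. Past the rule in either direction between the libraries labelled G3 Terc-/- and wild type were 16.2% of the 11586 symbols. Between the G3 libraries this share was 6.29%. Among 20 Hippo kinases and upstream regulators none was higher and 2 were lower in the library labelled G3 Terc-/- relative to wild type (median -0.17). These were the scaffold gene Wwc1 (KIBRA), at 4.95, 5.37, 0.98 and 1.55 FPKM in the order used above, and the FERM domain gene Frmd6, at 73.9, 78.8, 36.0 and 33.6 FPKM. Both were low in both G3 libraries. The protocadherin Dchs1 stood at 6.38, 3.55, 12.2 and 1.42 FPKM and was the single member of this list past the rule between the G3 libraries, and its binding partner Fat4 stood at 7.38, 9.27, 5.67 and 9.28 FPKM. The kinase genes Stk3 and Lats1, chosen after their values were seen, ranged only from 9.0 to 9.78 FPKM and from 10.7 to 13.5 FPKM.

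Of 7 measured TEAD, VGLL and AMOT genes none passed the rule between the libraries labelled G3 Terc-/- and wild type (median 0.069) or between the G3 libraries (median -0.050). Of the 11586 symbols 16.2% and 6.29% passed it in these comparisons. Amot, the angiomotin gene, stood at 7.97, 8.36, 16.5 and 17.99 FPKM and was higher in both G3 libraries. The TEAD cofactor Vgll3 stood at 46.3, 46.3, 73.6 and 55.9 FPKM, and Vgll4, which competes with YAP for TEAD, at 15.6, 11.9, 16.4 and 17.5 FPKM. Among the other TEAD genes Tead2 stood at 41.4, 38.1, 30.6 and 31.6 FPKM, Tead3 at 30.0, 26.7, 31.6 and 30.5 FPKM and Tead4 at 2.35, 3.39, 1.43 and 1.34 FPKM. Tead1 was thus the most abundant TEAD transcript per length in every library.

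Further YAP and TAZ target genes gave a divided picture. Of 17 measured genes 2 were higher and none lower in the library labelled G3 Terc-/- relative to wild type (median 0.36), and 10 had a positive difference. The 17 include Gadd45a itself, with a difference of 0.44. Over the 11586 symbols 16.2% passed the rule in either direction and 50.4% had a positive difference. F3, the tissue factor that starts blood clotting, stood at 54.7, 102, 434 and 346 FPKM, high in both G3 libraries. The forkhead gene Foxf2 stood at 3.03, 1.76, 11.3 and 4.61 FPKM. Lats2, a Hippo kinase that YAP itself induces, stood at 37.3, 41.2, 74.5 and 36.9 FPKM, alone high in the library labelled G3 Terc-/- like Ctgf. Igfbp3, a carrier of insulin-like growth factors, stood at 28.2, 33.1, 23.5 and 77.5 FPKM and was higher in the library labelled G3 dKO. The library labelled G3 Terc-/- held the highest of the 4 values for 8 of the 17 genes (47.1%) and the lowest for 7 (41.2%). Over the 11586 symbols these shares were 39.0% and 34.2%. The shared top position of Ctgf, Cyr61, Ankrd1 and Amotl2 in that library was thus not a feature of all genes on this list.

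**Figure D5:**
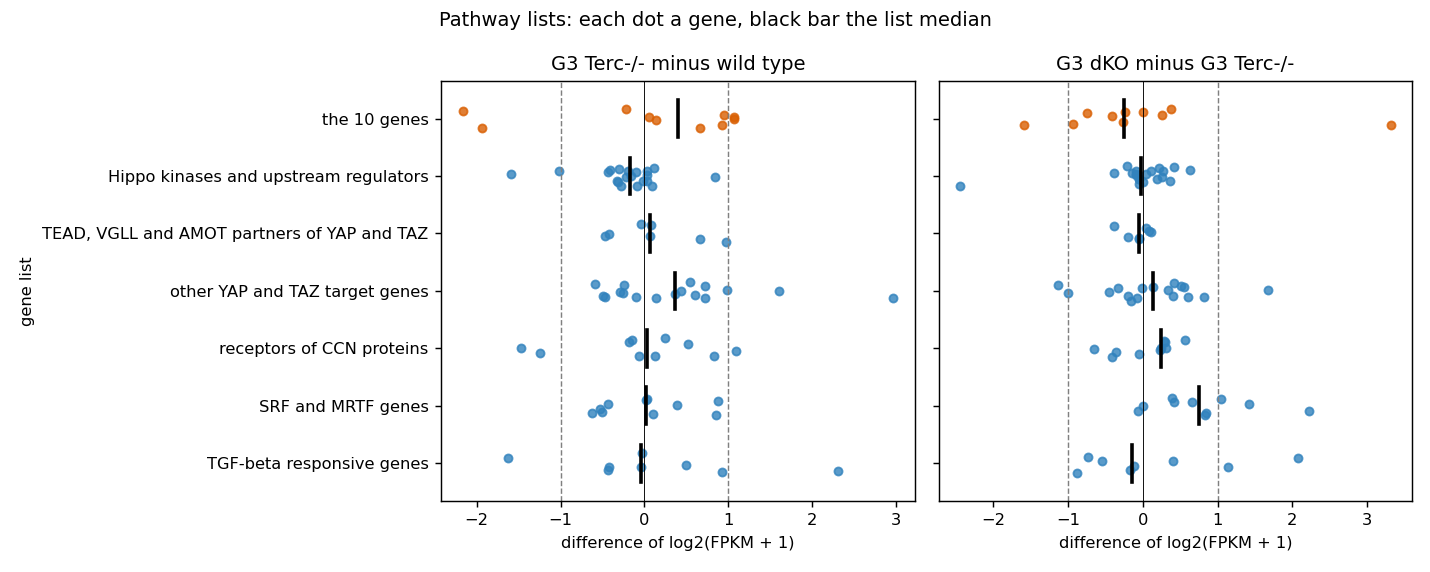
Difference of log2(FPKM + 1) (horizontal axes) of each measured gene in the 10 members and in 6 pathway lists (vertical axis), for G3 Terc-/- minus wild type on the left and G3 dKO minus G3 Terc-/- on the right, with black bars at list medians and dashed lines at the size rule. Most genes lie between the dashed lines, and the SRF and MRTF genes are shifted to the right, with a median of 0.75, in the right panel.

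Receptors that CCN proteins bind included 10 measured genes. In the library labelled G3 Terc-/- 1 was higher and 2 lower relative to wild type (median 0.035). Of the 11586 symbols 16.2% passed the rule there in either direction. The heparan sulfate proteoglycan gene Sdc4 stood at 28.4, 49.7, 61.5 and 38.7 FPKM, the integrin subunit gene Itga6 at 9.16, 9.78, 2.66 and 3.33 FPKM, and Notch1, a receptor that Nov binds, at 9.03, 10.9, 3.22 and 3.08 FPKM. Itga5, the fibronectin receptor subunit, stood at 89.3, 126, 159 and 235 FPKM. No receptor gene passed the rule between the G3 libraries, against 6.29% of the 11586 symbols, and the median was 0.24.

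Ctgf and Cyr61 also respond to SRF with its actin-regulated MRTF cofactors and to TGF-beta, and the genes of those responses were set beside them. Past the rule in either direction were 16.2% of the 11586 symbols for G3 Terc-/- against wild type and 6.29% between the G3 libraries. Of 10 SRF and MRTF genes none passed the rule between the libraries labelled G3 Terc-/- and wild type (median 0.024), and 3 were higher in the library labelled G3 dKO than in the library labelled G3 Terc-/- (median 0.75). Those were the contractile genes Cnn1 (73.1, 120, 132 and 357 FPKM), Actg2 (146, 194, 108 and 504 FPKM) and Acta2 (2756, 3253, 1913 and 3946 FPKM), and Myl9 stood at 412, 553, 541 and 974.8 FPKM. They were highest in the library labelled G3 dKO, where Ctgf was 1.92-fold below its value in the library labelled G3 Terc-/-. Of 8 TGF-beta responsive genes 1 was higher and 1 lower in the library labelled G3 Terc-/- than in wild type (median -0.037). The latent TGF-beta binding protein gene Ltbp2 stood at 28.1, 54.6, 143 and 77.0 FPKM, the matricellular gene Thbs1 at 2289.5, 2573, 4332 and 3849 FPKM and the ligand gene Tgfb3 at 93.0, 102, 29.4 and 65.9 FPKM. Between the G3 libraries 2 were higher in the library labelled G3 dKO (median -0.14), Tgfb3 and the matrix gene Tgfbi, at 9.23, 12.2, 8.95 and 41.1 FPKM. Ltbp2 and Thbs1 shared the order of Ctgf, and Smad7 also had its highest value in the library labelled G3 Terc-/-. Tgfb3, Tgfbi and Pmepa1 instead had their lowest value there.

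The genes whose profile over the 4 libraries lay nearest to that of Nov, by the Euclidean distance between centred log2(FPKM + 1) values among 11586 symbols, were Pisd-ps3 (0.23), Il1rn (0.55) and Ptn (0.63). Pisd-ps3 is a pseudogene with related copies, so its value is uncertain. Il1rn, the interleukin-1 receptor antagonist, stood at 4.44, 17.4, 0.47 and 14.2 FPKM, and Ptn, a heparin-binding growth factor, at 162, 184, 26.1 and 333 FPKM. All 3 were lowest in the library labelled G3 Terc-/-, which follows from their choice by nearness to Nov and is no separate result.

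All 8 fibroblast markers were measured, with a summed level of 6434 FPKM in the library labelled G3 Terc-/- and 10719 to 11631 FPKM in the others. Single markers went down to 8.99 FPKM, for Dpt in the library labelled G3 dKO. Against the sum, 2 of the 8, Fn1 and Pdgfra, were higher in the library labelled G3 Terc-/- than in wild type. Ankrd1 is also a muscle gene. The 9 cardiac and skeletal muscle markers summed to 26.2, 14.8, 2.47 and 7.23 FPKM, mostly from Tnnt2 in wild type, with Myh7 at 0 in every library, and were lowest in the library labelled G3 Terc-/-, and their part in the Ankrd1 result was not tested. The 4 smooth muscle markers summed to 144, 181, 205 and 470.4 FPKM, mostly from Cnn1, which was also on the SRF and MRTF list. Des (12.1 FPKM) and Smtn (26.7 FPKM) were instead lowest in the library labelled G3 Terc-/-. The part of these markers in the results was not tested. The 5 chondrocyte markers summed to 10.2, 11.6, 2.90 and 7.21 FPKM, mostly from Sox9. Like Nov, this sum was lowest in the library labelled G3 Terc-/-, and the part of these markers in the Nov result was not tested. The 5 neural markers summed to 26.2 to 77.6 FPKM, nearly all from Tubb3. Epithelial (6), endothelial (5), macrophage and leukocyte (5), liver (3) and erythroid (3) markers summed to at most 9.22, 2.01, 4.17, 6.44 and 0.28 FPKM in any library. In the libraries labelled wild type, Gadd45a-/-, G3 Terc-/- and G3 dKO the epithelial sum was 9.22, 2.73, 1.67 and 1.89 FPKM. The liver sum was 6.44, 0.03, 0.33 and 0.03 FPKM in that order. Both were highest in wild type, and their part in the results was not tested.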

How the data were processed

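The authors deposited FPKM values, 1 per gene symbol in each of 4 libraries, 1 library per genotype. Per the submitters' processing notes TopHat2 2.1.1, Cufflinks 2.2.1 and the build mm9 were used, without stated roles. The sources used here do not give the annotation, strand setting or filters. Per the labels' protocols, RNA was selected on oligo(dT) beads. FPKM is scaled to each library's mapped fragments, so abundant transcripts lower all other values slightly. Symbols of short non-coding RNA (745) were left out, leaving 22490.

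Differences of log2(FPKM + 1) used a pseudocount of 1 FPKM, which shrinks the differences of weakly expressed genes, and a size rule of 1. No test was made. Depth was estimated from FPKM of at most 0.05 on genes with 1 GENCODE M21 transcript of 1500 to 8000 nt, taken as whole fragments with a fragment length of 200 nt. Between 75.8% and 83.2% of these values lay within 0.1 of a whole fragment. Members' fragments used the longest coding transcript. Pathway and marker lists were matched by symbol and synonym. Members and lists were chosen with earlier results of these data known. The genes named are all members, the other TEAD genes, Wisp3, Gadd45a, Terc, the 4 of each pathway list with the widest range and, for members with a range of at least 2, the 3 nearest profiles. Others were chosen after their values were seen. A gene of the TGF-beta list is not reported here. Alternatives were a pseudocount of 0.1 FPKM, median-of-ratios size factors, quantile normalization, a size rule of 0.5, short RNA kept in and a minimum mean of 1 FPKM. Python 3.11.15 with pandas 2.3.3 was used.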

Additional observations from a re-analysis of the deposited data

Results flagged for a closer look

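For Wisp2 the label Gadd45a-deficient went with a higher value in Terc-proficient cells (1.22) and a lower value in G3 cells (-1.59), a change of -2.81 on the log2 scale. The same value of -2.81 separates the G3 Terc difference with the Gadd45a-/- label (-1.86) from that without it (0.95), since both use the same 4 libraries. For Nov the G3 Terc difference was -2.17 without the Gadd45a-/- label and 0.15 with it, a change of 2.32. Each of these rests on 1 library per genotype, and the differences were not tested. They all include the library labelled Gadd45a-/-, which differed in sex, so genotype and sex cannot be told apart in them.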

How the results depend on the processing

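No paired analysis was possible because each genotype had 1 library. No replicate could be left out for the same reason. All 50 differences of the 10 members in 5 comparisons kept their direction with a pseudocount of 0.1 FPKM, with size factors and with quantile normalization. The scalings moved the median of the measured symbols by at most 0.092. For members, 2 calls crossed the size rule, namely Nov between the libraries labelled Gadd45a-/- and wild type, which made 2 members past the rule in place of 1 with a pseudocount of 0.1 FPKM, size factors, quantile normalization or a size rule of 0.5, and Ctgf between the G3 libraries with quantile normalization. With a size rule of 0.5 the members past it were 7 in place of 4 for G3 Terc-/- against wild type, 4 in place of 2 for G3 dKO against G3 Terc-/- and 5 in place of 2 for G3 dKO against wild type. Counts over all symbols were 2028, 819, 70, 591 and 804 for G3 Terc-/- against wild type, G3 dKO against G3 Terc-/-, Gadd45a-/- against wild type, G3 dKO against Gadd45a-/- and G3 dKO against wild type. With a pseudocount of 0.1 FPKM they became 4142, 2354, 818, 2030 and 2440, since genes of very few fragments then pass. With a size rule of 0.5 they became 5428, 2954, 520, 2728 and 3250. With short non-coding RNA kept in, the count for Gadd45a-/- against wild type became 180. Wisp3 and Terc rested on about 2 fragments or fewer in every library, and the 10 members on at least 178.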

Other observations

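Further profiles nearest to CCN genes were looked up after the values were seen. Nearest to Wisp1, low in both G3 libraries, were the placental cadherin Cdh3 (50.7, 38.4, 12.3 and 15.0 FPKM in the libraries labelled wild type, Gadd45a-/-, G3 Terc-/- and G3 dKO, at a distance of 0.12), the protocadherin Pcdh18 (38.1, 31.6, 10.3 and 12.5 FPKM, at 0.13) and the focal adhesion gene Tln2 (22.1, 18.9, 5.28 and 7.92 FPKM, at 0.16). Nearest to Wisp2 were U90926 (1.77, 5.66, 3.03 and 0.79 FPKM, at 0.37), the patterning gene Hoxd11 (1.65, 4.22, 5.28 and 0.81 FPKM, at 0.38) and the apolipoprotein gene Apod (4.14, 5.86, 8.41 and 1.63 FPKM, at 0.63). The genes nearest to Wisp2 shared with it a value in the library labelled G3 dKO below that in wild type. Their choice by nearness to Wisp2 makes this likely, so it is no separate result.

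Nearest to Yap1 was Zfp276 (0.013), and of rank 3 among 11586 symbols was the giant cadherin Fat1 (85.7, 93.9, 91.1 and 109 FPKM, at 0.032), which was also on the list of Hippo regulators. For genes as level as Yap1 such a short distance says little, since most genes differ little between the libraries.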
